A study of Mus musculus with 24 samples.

Results

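The transcripts described here are those of the liver in male C57BL/6J mice fed an HFD-EPA/DHA or an HFD-corn oil diet for 12 weeks. The comparison uses 8 of the 24 arrays of the study, 4 mice for each diet with 1 mouse for each array, and takes in all 41345 probe sets of the GeneChip Mouse Gene 2.0 ST array. All 8 mice were 10 weeks old at the start. The HFD-EPA/DHA diet contained oil concentrates rich in the n-3 fatty acids EPA and DHA in place of part of the corn oil of the HFD-corn oil diet. Corn oil, which is rich in the n-6 fatty acid linoleic acid, was thus in both HFDs, with less of it in HFD-EPA/DHA. Both HFDs also contained coconut oil, sucrose and added cholesterol, so cholesterol feeding was common to the compared groups. A low-fat control diet without added cholesterol was fed to 4 more mice for the same time, and the same 3 diets were fed for 8 weeks to other mice that were 9 weeks old at the start. The 4 mice of a diet were not drawn at random but by their weight and their blood lipids, and the mice shared cages, so that the spread between arrays may not be that of the whole diet group.

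EPA and DHA are long-chain polyunsaturated fatty acids (PUFAs) that enter liver membranes and triglycerides. They are known as ligands of Ppara, the nuclear receptor that turns on fatty acid oxidation, and as inhibitors of the maturation of Srebp1, the transcription factor that turns on the synthesis of fatty acids and of PUFAs. The comparison of the HFDs asks how liver transcripts differ by the type of fat when the amount of fat and cholesterol is alike.

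Signals are given on the log2 scale, where a difference of 1 is a doubling. The medians of the 8 arrays lay between 7.14 and 7.19. Arrays of the same diet correlated at 0.986 to 0.991 over all probe sets, and arrays of different diets at 0.986 to 0.991. Such correlations mostly follow which probe sets are bright or dim, so they cannot show whether the diets separated the arrays. The 9 measured hepatocyte markers, among them Alb and Apob, lay at 11.56 or above on every array, with means above 98.0% of the probe sets, as the label liver implies, and their summed linear signal was 70831 to 71904 on HFD-EPA/DHA, against 70022 to 72691 on HFD-corn oil. Of 9 other measured lists of cell type markers only that of sinusoidal endothelial cells did not overlap between the diets, with sums of its 8 markers from 8988 to 9268 on HFD-EPA/DHA, against 9535 to 9826 on HFD-corn oil. Its members had a median log2 fold change of −0.06, none passed the test, and the part of these cells in the results was not tested. In whole liver, fewer cells of a type and less RNA per cell cannot be told apart.

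At 12 weeks, 4 probe sets were lower on HFD-EPA/DHA than on HFD-corn oil and none was higher, at a limma adjusted p under 0.05 over all 41345 probe sets. These are 0.00967% lower and 0% higher of the probe sets tested. The 4 were Apoa4, Stap1, Gpc1 and a probe set without a gene name. At an unadjusted p under 0.05, 969 probe sets were higher and 944 lower. Together these are 1913 of the 41345 probe sets, no more than that threshold passes by chance. The log2 fold change was 1 or more in either direction for 15 probe sets, 7 higher and 8 lower.

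Apoa4, the apolipoprotein carried on chylomicrons and HDL and secreted by intestine and liver, had the smallest p. Its log2 signals were 11.21, 11.18, 10.97 and 10.81 on HFD-EPA/DHA, against 12.79, 12.57, 12.50 and 12.50 on HFD-corn oil. The highest array on HFD-EPA/DHA thus lay more than a doubling below the lowest on HFD-corn oil. Apoa4 fell, with a log2 difference of −1.55 ± 0.14 between the HFDs (SE, 4 mice per diet, limma adjusted p = 2.54e-06), which is a 2.92-fold lower signal. This SE and those that follow are limma's moderated values. They rest on the spread within all 6 groups of 23 arrays, not on that of the 2 compared diets alone. The control diet gave the highest signals of the 3 diets, from 12.90 to 13.20. Set against the control mice, Apoa4 differed by −1.99 on the EPA/DHA diet (adjusted p = 7.06e-09), and by −0.44 on the corn oil diet (adjusted p = 0.286). The RefSeq promoter of Apoa4 is shown because this gene carried the strongest difference, at chr9:46240594-46240893 on the plus strand of GRCm38.p6, with the first transcribed base in a capital.
Apoa4: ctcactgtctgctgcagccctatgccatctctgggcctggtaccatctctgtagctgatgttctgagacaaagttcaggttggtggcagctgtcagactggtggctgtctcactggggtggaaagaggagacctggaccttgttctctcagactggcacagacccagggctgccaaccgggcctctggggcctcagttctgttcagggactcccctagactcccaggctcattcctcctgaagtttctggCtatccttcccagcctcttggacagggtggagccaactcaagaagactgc

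Stap1, an adaptor protein that docks on receptor tyrosine kinases, differed by as much. Its log2 signals were 7.64, 7.96, 7.30 and 7.39 on HFD-EPA/DHA, against 9.45, 9.20, 9.11 and 8.74 on HFD-corn oil, with no overlap. Stap1 fell, with a log2 difference of −1.55 ± 0.21 (adjusted p = 0.00158). The control mice, at 8.68, 8.49, 8.86 and 8.81, lay near the corn oil mice, and Stap1 was lower in EPA/DHA mice than in control mice (−1.14, adjusted p = 0.00646). The call of Stap1 was lost, with adjusted p = 0.302, when the 8-week array on HFD-corn oil that the study had left out was kept in the fit.

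Gpc1, a cell-surface heparan sulfate proteoglycan, had the smallest spread of the 4. Its log2 signals were 8.07, 8.12, 7.92 and 7.97 on HFD-EPA/DHA, against 8.75, 8.79, 8.92 and 8.79 on HFD-corn oil. Gpc1 fell too (−0.79 ± 0.11, adjusted p = 0.00158). A second, dimmer probe set of Gpc1 had a log2 fold change of −0.05 ± 0.09, so the probe sets of this gene disagreed. The probe set without a gene name, 17526633, had log2 signals of 8.12, 7.91, 7.81 and 7.98 on HFD-EPA/DHA, against 9.55, 9.41, 9.02 and 8.95 on HFD-corn oil. It fell, with a log2 difference of −1.28 ± 0.14 (adjusted p = 6.25e-05). Like Apoa4, it was highest in control mice, at 9.78 to 10.18. The log2 difference from control was −2.05 in EPA/DHA mice (adjusted p = 7.06e-09) and −0.77 in corn oil mice (adjusted p = 0.0179).

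**Figure D1:**
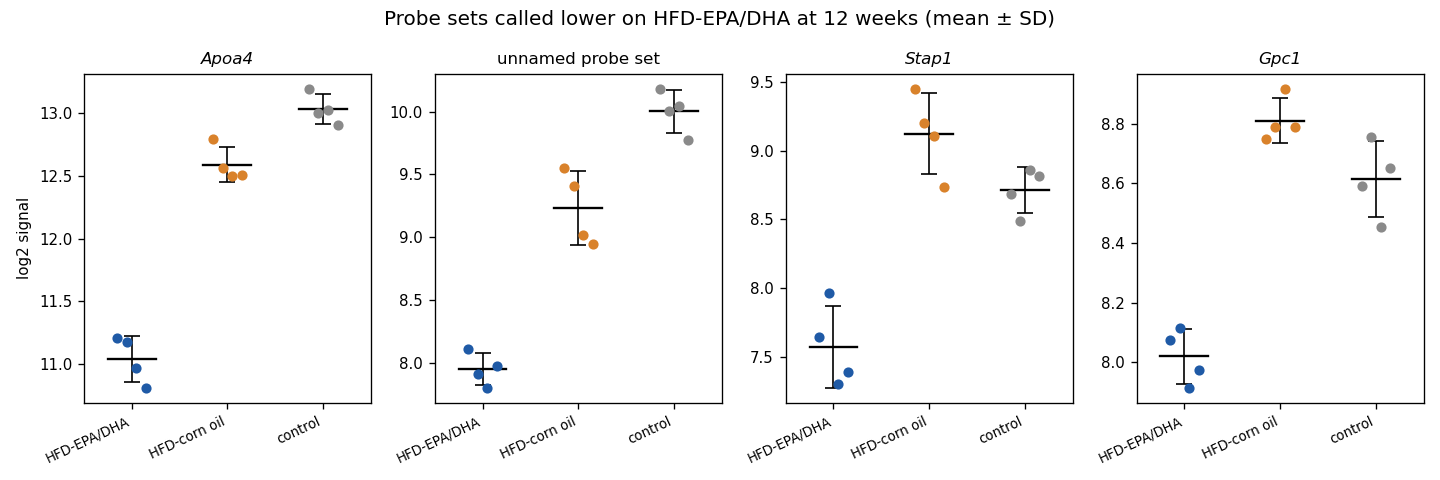
Log2 signal of the 4 probe sets called lower on HFD-EPA/DHA at 12 weeks, with 1 point per mouse, the mean as a bar and the SD as whiskers (n = 4 mice per diet). In each panel the HFD-EPA/DHA points, on the left, lie below every HFD-corn oil and control point, and the vertical axes differ and do not start at 0.

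No other probe set passed the test, and the smallest adjusted p of the rest was 0.137. The groups of genes that follow are therefore described by their measured values, set beside all 22180 genes with a probe set of their own. Over these genes, 515 (2.32%) were higher and 568 (2.56%) lower on HFD-EPA/DHA at an unadjusted p under 0.05, and 407 (1.83%) lay higher and 369 (1.66%) lower on all 4 HFD-EPA/DHA arrays than on all 4 HFD-corn oil arrays. The shares at an unadjusted p under 0.05 lay near what that threshold passes by chance. The median log2 fold change over all genes was 0.00, and 50.3% of them lay above 0.

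The genes that lengthen and desaturate dietary PUFAs had lower signals on HFD-EPA/DHA. Of the 5 measured genes of PUFA synthesis, all lay below 0, with a median log2 fold change of −0.45, and 4 had an unadjusted p under 0.05. Elovl2, the elongase that leads to DHA, had log2 signals of 11.94, 12.00, 11.84 and 11.98 on HFD-EPA/DHA, against 12.40, 12.36, 12.28 and 12.30 on HFD-corn oil, and the arrays within each diet lay close together. Its log2 fold change was −0.40 ± 0.08 (limma adjusted p = 0.193). Fads2, the Δ6-desaturase that starts the pathway, had 12.39, 12.25, 11.92 and 11.84 on HFD-EPA/DHA, against 12.73, 12.71, 12.51 and 12.50 on HFD-corn oil. The log2 difference was −0.51 ± 0.11 (adjusted p = 0.242). Fads1, the Δ5-desaturase, and Elovl5, an elongase of the middle steps, had −0.45 ± 0.12 and −0.47 ± 0.14 (adjusted p = 0.782 for each), with arrays of the diets that overlapped. All 4 genes were lower on HFD-EPA/DHA than on control in the test, with log2 fold changes of −0.79 for Elovl2, −0.73 for Fads2, −0.82 for Fads1 and −0.64 for Elovl5. On HFD-corn oil against control, Elovl2 passed the test at −0.39 (adjusted p = 0.0441), and the values of the other 3 were between −0.37 and −0.16. The promoter of Fads2, at chr19:10101454-10101753 on the minus strand of GRCm38.p6, is shown for this group, with the first transcribed base in a capital.
Fads2: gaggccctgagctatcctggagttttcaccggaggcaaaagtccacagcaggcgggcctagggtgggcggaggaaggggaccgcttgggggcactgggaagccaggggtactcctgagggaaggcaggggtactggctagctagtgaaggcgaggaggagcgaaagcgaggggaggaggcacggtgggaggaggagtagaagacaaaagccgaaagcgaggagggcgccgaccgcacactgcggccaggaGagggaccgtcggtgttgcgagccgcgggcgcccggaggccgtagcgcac

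Genes of de novo lipogenesis, which turns carbohydrate into fatty acids, lay lower still. All 15 measured genes were below 0, with a median log2 fold change of −0.54, and 9 of them had an unadjusted p under 0.05. Fasn, the fatty acid synthase, had log2 signals of 11.94, 12.19, 11.01 and 10.69 on HFD-EPA/DHA, against 12.81, 12.46, 12.05 and 12.44 on HFD-corn oil. The log2 difference was −0.98 ± 0.29 (limma adjusted p = 0.782). Replicates 3 and 4 on HFD-EPA/DHA were the low ones, while replicate 2 on that diet lay above replicate 3 on HFD-corn oil. Acly, which makes cytosolic acetyl-CoA, had 10.88, 11.24, 10.70 and 10.76 on HFD-EPA/DHA, against 12.05, 11.70, 11.22 and 11.61 on HFD-corn oil, a log2 fold change of −0.75 ± 0.21 (adjusted p = 0.782). Thrsp, a lipogenic regulator of the nucleus, was the most spread, at 10.93, 11.57, 9.59 and 9.39 on HFD-EPA/DHA, against 12.21, 11.90, 10.92 and 11.64 on HFD-corn oil (−1.30 ± 0.40, adjusted p = 0.793). Of the 15 genes, Pklr, the liver pyruvate kinase, and Acaca, the acetyl-CoA carboxylase that makes malonyl-CoA for synthesis, did not overlap between the diets, and both had a log2 fold change of −0.54. Pnpla3, a lipase of the droplet surface induced with lipogenesis, had −0.90 ± 0.41, and −0.57 without a mouse on HFD-corn oil at 8.91. Scd1, the stearoyl-CoA desaturase, differed by −0.20 ± 0.09, and Srebf1, which encodes Srebp1, by −0.38 ± 0.23. Against control, Acly fell in EPA/DHA mice (−1.29, adjusted p = 0.00201) and had −0.53 in corn oil mice (adjusted p = 0.459).

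Both HFDs contained cholesterol, and sterol genes still lay lower on HFD-EPA/DHA than on HFD-corn oil. Sterol synthesis had 15 of its 16 measured genes below 0, with a median of −0.27 (−0.17 without replicate 1 on HFD-corn oil), and 5 had an unadjusted p under 0.05. Fdps, which makes farnesyl diphosphate, had log2 signals of 11.02, 10.85, 10.27 and 10.74 on HFD-EPA/DHA, against 11.75, 11.39, 11.02 and 11.21 on HFD-corn oil. The diets all but touched, and the log2 fold change was −0.62 ± 0.24 (limma adjusted p = 1.00). Dhcr7, of the last step to cholesterol, had −0.59 ± 0.23, and Msmo1, a sterol demethylase, had −0.58 ± 0.23. Sqle, the squalene epoxidase, had −0.67 ± 0.35, and −0.33 without a mouse on HFD-corn oil at 9.03. The log2 signals of Sqle were 7.10 to 7.74 on HFD-EPA/DHA, and 7.56 to 7.81 in the other 3 mice on HFD-corn oil. Among 9 genes of sterol regulation and uptake, 3 had an unadjusted p under 0.05 and were lower. Insig1, which holds the Srebp proteins in the endoplasmic reticulum, had 11.77, 11.66, 11.16 and 11.19 on HFD-EPA/DHA, against 12.28, 12.03, 11.92 and 11.81 on HFD-corn oil (−0.56 ± 0.17, adjusted p = 0.782). Stard4, which moves cholesterol between membranes, did not overlap between the diets (−0.40 ± 0.11, adjusted p = 0.782), and Insig2, a close relative of Insig1, had −0.31 ± 0.15. Against control the 16 synthesis genes had a median of −1.08 on HFD-EPA/DHA, against −0.79 on HFD-corn oil.

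Genes of fatty acid oxidation lay on the other side. Of 20 measured mitochondrial genes 19 lay above 0, with a median log2 fold change of 0.16, 9 had an unadjusted p under 0.05 and 11 did not overlap between the diets. The differences were small and even. Slc22a5, the carnitine transporter of the cell membrane, had log2 signals of 9.32, 9.16, 9.29 and 9.24 on HFD-EPA/DHA, against 8.43, 8.82, 9.04 and 8.84 on HFD-corn oil, a log2 fold change of 0.47 ± 0.11 (limma adjusted p = 0.463). Eci2, which moves the double bonds of unsaturated acyl-CoAs, had 11.20, 11.03, 11.15 and 10.95 on HFD-EPA/DHA, against 10.66, 10.80, 10.71 and 10.61 on HFD-corn oil (0.39 ± 0.11, adjusted p = 0.782). Slc25a20, which carries acylcarnitines across the inner mitochondrial membrane, had 0.28 ± 0.08 (adjusted p = 0.782). The single gene below 0 was Cpt1a, the gate enzyme of mitochondrial oxidation, at −0.09 ± 0.11, with 12.17, 11.87, 11.87 and 11.91 on HFD-EPA/DHA, against 12.10, 12.13, 12.10 and 11.84 on HFD-corn oil.

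Of 17 measured peroxisomal genes 15 lay above 0, with a median of 0.09 (0.06 without replicate 1 on HFD-EPA/DHA), and 5 had an unadjusted p under 0.05. Ehhadh, the bifunctional enzyme of peroxisomal oxidation, had log2 signals of 12.51, 12.35, 12.44 and 12.14 on HFD-EPA/DHA, against 12.02, 12.00, 11.83 and 11.93 on HFD-corn oil. The log2 difference was 0.41 ± 0.10 (limma adjusted p = 0.481), and against control it rose by 0.76 in EPA/DHA mice (adjusted p = 0.000181) and had 0.34 in corn oil mice (adjusted p = 0.225). Crot, a carnitine acyltransferase of peroxisomes, had 0.44 ± 0.13, Hacl1, a lyase of α-oxidation, 0.43 ± 0.13, and Ech1, an isomerase, 0.28 ± 0.08, and none of the 3 overlapped between the diets. The promoter of Ehhadh, at chr16:21787785-21788084 on the minus strand of GRCm38.p6, is shown because it was the only one to hold a searched motif among the 68 named genes that had a RefSeq promoter of 300 bases. The capitals mark a match of the sterol response element TCACNCCAC on the opposite strand, from base 80 of the window.
Ehhadh: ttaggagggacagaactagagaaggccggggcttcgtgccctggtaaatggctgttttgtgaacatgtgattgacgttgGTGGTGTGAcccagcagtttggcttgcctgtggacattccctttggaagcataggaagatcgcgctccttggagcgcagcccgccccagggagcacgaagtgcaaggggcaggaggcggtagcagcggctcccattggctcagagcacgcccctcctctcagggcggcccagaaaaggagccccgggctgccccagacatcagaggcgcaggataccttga
This element, searched on both strands, was held by 1.24% of the 32851 RefSeq promoters of that length. Direct repeats of AGGTCA spaced by 1 base and by 4 bases, bound by partners of Rxr, were held by 0.0396% and 0.0152% of them and by none of the named genes, and no match overlapped another. A match is only these letters in this window.

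**Figure D2:**
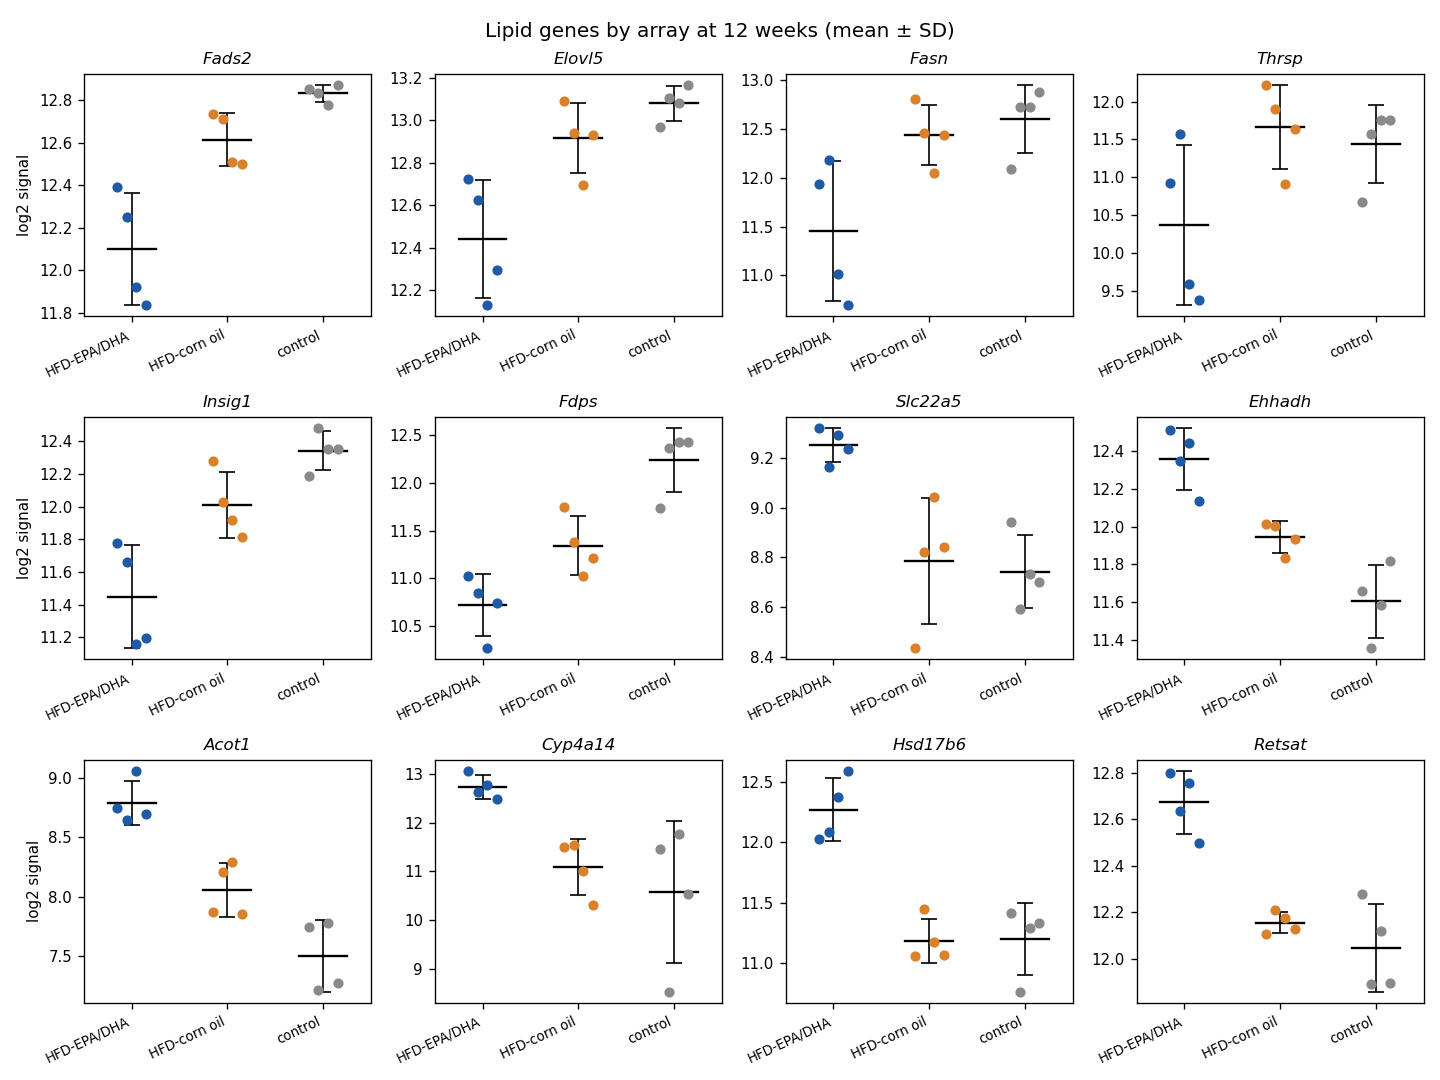
Log2 signal of 12 lipid genes at 12 weeks, with 1 point per mouse in the order of the replicate numbers, the mean as a bar and the SD as whiskers (n = 4 mice per diet). On HFD-EPA/DHA, on the left of each panel, Fads2, Insig1 and Fdps lie below and Slc22a5, Ehhadh, Acot1, Cyp4a14, Hsd17b6 and Retsat above every HFD-corn oil point. The vertical axes differ and do not start at 0.

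Among enzymes that act beside β-oxidation, a few members lay well above 0 while the medians of their lists did not. Of 11 measured acyl-CoA thioesterases, which release free fatty acids from coenzyme A, 5 had an unadjusted p under 0.05, all higher and without overlap, and 4 lay below 0. The median of the list was 0.12, and 0.04 without replicate 2 on HFD-EPA/DHA. Acot1, the cytosolic member, had log2 signals of 8.75, 8.64, 9.06 and 8.70 on HFD-EPA/DHA, against 7.87, 8.20, 8.29 and 7.85 on HFD-corn oil, a log2 fold change of 0.73 ± 0.16 (limma adjusted p = 0.235). Acot3, a peroxisomal member, had 10.39, 9.28, 9.24 and 9.22 on HFD-EPA/DHA, against 7.84, 8.27, 8.40 and 7.86 on HFD-corn oil (1.44 ± 0.54). A single mouse on HFD-EPA/DHA stood far above the other 3, and the value without it was 1.15. Acot4 and Acot2, of peroxisomes and mitochondria, had 0.54 ± 0.23 and 0.37 ± 0.16, while a dimmer probe set of Acot4 had 0.19 ± 0.17. Among 12 Cyp4 genes, with a median of 0.04 that ranged from 0.01 to 0.08 with each mouse left out, 8 lay above 0 and 4 below. Of them 2 had an unadjusted p under 0.05, and both belong to the Cyp4a family, the ω-hydroxylases known as Ppara targets. Cyp4a14 had 13.06, 12.63, 12.77 and 12.48 on HFD-EPA/DHA, against 10.31 to 11.54 in the 4 mice on HFD-corn oil, a 3.14-fold higher signal (1.65 ± 0.53, adjusted p = 0.833). Cyp4a31 had 9.89, 9.35, 10.09 and 10.25 on HFD-EPA/DHA, against 8.62, 8.87, 9.30 and 8.58 on HFD-corn oil (1.05 ± 0.24, adjusted p = 0.395). The Acot and Cyp4a genes have near-identical neighbours, and their probe sets could share signal. Vnn1, a pantetheinase, had 0.48 ± 0.21, and Ppara itself had −0.15 ± 0.18, with 11.36, 11.18, 11.12 and 11.13 on HFD-EPA/DHA, against 11.14, 11.58, 11.55 and 11.13 on HFD-corn oil.

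**Figure D3:**
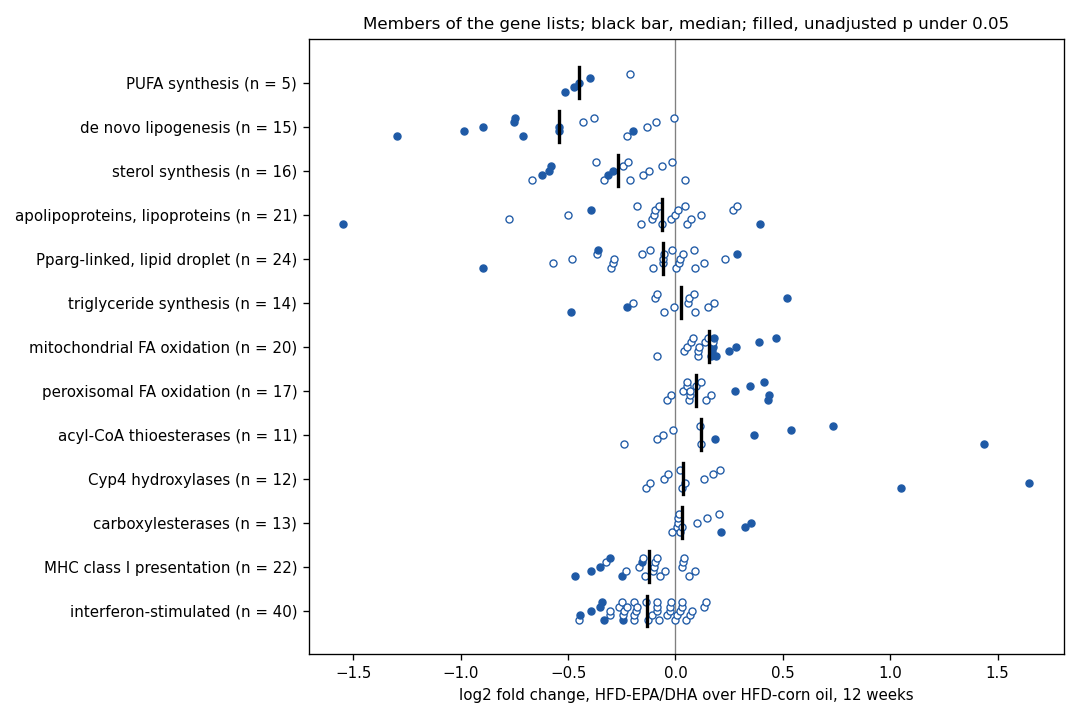
Log2 fold change at 12 weeks, HFD-EPA/DHA over HFD-corn oil, of each measured member of 13 gene lists, with filled points for an unadjusted p under 0.05 and a black bar at the median of the list. The medians of PUFA synthesis (−0.45), de novo lipogenesis (−0.54) and sterol synthesis (−0.27) lie furthest below 0, and that of mitochondrial fatty acid oxidation (0.16) lies furthest above.

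Hsd17b6, Retsat and Slc39a4 are described next as genes above 0 without overlap between the diets. Hsd17b6, a hydroxysteroid dehydrogenase that also handles retinols, had log2 signals of 12.03, 12.09, 12.38 and 12.59 on HFD-EPA/DHA, against 11.06, 11.45, 11.18 and 11.07 on HFD-corn oil. The log2 difference was 1.08 ± 0.22 (limma adjusted p = 0.170), and it passed the test when the 12-week arrays were fitted alone (adjusted p = 0.0206). Retsat, which saturates retinol, had 12.80, 12.64, 12.76 and 12.50 on HFD-EPA/DHA, against 12.11, 12.21, 12.18 and 12.13 on HFD-corn oil (0.52 ± 0.11, adjusted p = 0.185). Slc39a4, a zinc importer, had 9.51, 9.91, 10.25 and 10.04 on HFD-EPA/DHA, against 8.85, 8.91, 9.23 and 9.26 on HFD-corn oil (0.87 ± 0.16, adjusted p = 0.137). All 3 rose in EPA/DHA mice against control, by log2 fold changes of 1.07 for Hsd17b6 (adjusted p = 0.0136), 0.63 for Retsat (adjusted p = 0.00237) and 1.35 for Slc39a4 (adjusted p = 7.51e-05). In corn oil mice against control, Hsd17b6, Retsat and Slc39a4 had −0.01, 0.11 and 0.49, and none passed the test. Etnppl, a phospholyase of phosphoethanolamine, and Mreg, a melanosome protein, had 0.42 ± 0.19 and 0.40 ± 0.15 between the HFDs. The metallothioneins Mt1 and Mt2, which bind zinc, had 0.18 ± 0.26 and −0.12 ± 0.38, with arrays that overlapped widely.

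Beyond Apoa4, lipoprotein genes differed little. Of 21 measured apolipoprotein and lipoprotein genes, 2 were lower and 1 higher at an unadjusted p under 0.05, and the median was −0.06, with −0.09 to 0.00 when each mouse was left out. Apoc2, the cofactor of lipoprotein lipase, had log2 signals of 11.96, 11.99, 11.84 and 11.90 on HFD-EPA/DHA, against 12.39, 12.30, 12.20 and 12.38 on HFD-corn oil (−0.39 ± 0.10, limma adjusted p = 0.657). Vldlr, the receptor for VLDL, had 0.39 ± 0.18, and Apoa5, a neighbour of Apoa4 in the genome that lowers plasma triglycerides, had −0.10 ± 0.09. Fabp2, a fatty acid binding protein known from intestine, had 10.81, 10.97, 10.68 and 10.37 on HFD-EPA/DHA, against 11.47, 11.54, 11.40 and 11.10 on HFD-corn oil, without overlap (−0.67 ± 0.14, adjusted p = 0.185). In triglyceride synthesis, with 1 gene higher and 2 lower of 14, the acyltransferases of the first step had values on both sides of 0. Gpat3 had 7.95, 8.11, 8.18 and 7.57 on HFD-EPA/DHA, against 7.36, 7.33, 7.54 and 7.50 on HFD-corn oil (0.52 ± 0.16), while a dimmer probe set of it had 0.09 ± 0.15. Gpam, the mitochondrial enzyme, had −0.49 ± 0.17.

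Genes linked to Pparg and lipid droplets, which store triglyceride, overlapped between the HFDs with few exceptions. Of 24 genes, 1 was higher and 2 lower at an unadjusted p under 0.05, and the median was −0.06, with −0.14 to 0.02 when each mouse was left out. Pparg had log2 signals of 9.72, 9.76, 9.24 and 8.84 on HFD-EPA/DHA, against 9.94, 9.83, 9.29 and 9.96 on HFD-corn oil (−0.37 ± 0.19, limma adjusted p = 1.00). Cidec, a droplet fusion protein, had 8.63, 8.79, 7.89 and 7.41 on HFD-EPA/DHA, against 8.58, 9.24, 8.49 and 8.33 on HFD-corn oil (−0.48 ± 0.28). Its relative Cidea had −0.30 ± 0.26, Fitm1, which partitions fat into droplets, −0.29 ± 0.14, and Lgals1, a galectin, −0.28 ± 0.20. A dimmer probe set of Fitm1 had −0.02 ± 0.09. Cd36, a fatty acid translocase, Sema5b, a semaphorin, and Aldh3a2, a fatty aldehyde dehydrogenase, lay at −0.06 ± 0.24, −0.06 ± 0.14 and 0.02 ± 0.10. On both HFDs against control, Cd36, Aldh3a2, Sema5b and Fitm1 rose, by 1.12, 0.69, 0.92 and 0.76 on HFD-EPA/DHA and by 1.18, 0.66, 0.98 and 1.05 on HFD-corn oil. Pparg, Cidec and Lgals1 had 0.64, 0.95 and 0.84 in EPA/DHA mice against control (adjusted p = 0.179, 0.162 and 0.0509), and rose in corn oil mice by 1.01, 1.43 and 1.13 (adjusted p = 0.0223, 0.0247 and 0.0147). Plin3, a droplet coat protein, was lower on all 4 arrays (−0.36 ± 0.10), and Hsd17b11, a droplet dehydrogenase, was higher on all 4 (0.29 ± 0.08). The lowest value of the list was that of Pnpla3, given above with lipogenesis, at −0.90 ± 0.41 with arrays that overlapped.

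Of 42 genes of the Cyp2 and Cyp3 families, which oxidize drugs and steroids, 32 lay above 0, with a median of 0.07 (0.11 without replicate 4 on HFD-EPA/DHA), and 6 were higher and 3 lower at an unadjusted p under 0.05. Cyp2b9, a P450 of the Cyp2b family, had the largest log2 fold change of the whole comparison, 2.66 ± 0.79 (limma adjusted p = 0.782). Its log2 signals were 11.27, 11.35, 7.94 and 9.33 on HFD-EPA/DHA, against 7.89, 7.65, 6.51 and 7.19 on HFD-corn oil, so that the mice on HFD-EPA/DHA spanned more than 3 log2 units. Cyp2c55 had −0.92 ± 0.30, and a dimmer probe set of it had 0.31 ± 0.16. Cyp3a44 had 0.38 ± 0.13. Of 13 carboxylesterases 12 lay above 0, with a median of 0.03 and 0.04 to 0.12 when each mouse was left out, and Ces2a, a hydrolase of acylglycerols in liver, had 11.87, 11.92, 11.78 and 11.65 on HFD-EPA/DHA, against 11.42, 11.50, 11.40 and 11.49 on HFD-corn oil (0.35 ± 0.09, adjusted p = 0.780). Ces1d and Ces1g had 0.32 ± 0.11 and 0.21 ± 0.09, and members of the Ces1 cluster are similar enough to share signal. Cyp17a1, the steroid 17α-hydroxylase, had −0.81 ± 0.34.

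The lists of antigen presentation and of the interferon response had medians slightly below 0, and the size of that of the interferon response depended on single mice. Of 22 genes of MHC class I antigen presentation 17 lay below 0, with a median of −0.12, and 6 had an unadjusted p under 0.05. Psmb9, an immunoproteasome subunit, had log2 signals of 8.70, 8.59, 8.41 and 8.79 on HFD-EPA/DHA, against 9.25, 8.92, 9.15 and 9.04 on HFD-corn oil (−0.47 ± 0.13, limma adjusted p = 0.782). Tap1, the peptide transporter, had −0.35 ± 0.10, and H2-Q1, a class I heavy chain with close relatives on the array, had −0.40 ± 0.12, both without overlap. Of 40 interferon-stimulated genes 31 lay below 0, with a median of −0.13, and 6 had an unadjusted p under 0.05. Single mice moved this median, to −0.26 without replicate 4 on HFD-EPA/DHA and to −0.03 without replicate 3 on HFD-corn oil. With each gene set to its mean over the 8 arrays, the median of the list was −0.21, −0.15, −0.17 and 0.28 on HFD-EPA/DHA, against 0.03, −0.06, 0.32 and 0.07 on HFD-corn oil, so that replicate 4 on HFD-EPA/DHA lay above 3 of the 4 mice on HFD-corn oil. Ifih1, a sensor of viral RNA, had 9.77, 9.83, 9.79 and 10.07 on HFD-EPA/DHA, against 10.23, 10.17, 10.34 and 10.30 on HFD-corn oil (−0.39 ± 0.10, adjusted p = 0.498), and Dhx58, a related sensor, had −0.34 ± 0.14. Cxcl11, a chemokine of this response, had −0.48 ± 0.19. The summed signal of 14 Kupffer cell and macrophage markers was 9616 to 11987 on HFD-EPA/DHA, against 10053 to 12051 on HFD-corn oil. That of 8 T and NK cell markers was 1464 to 1720 on HFD-EPA/DHA, against 1547 to 1622 on HFD-corn oil, so that both lists overlapped between the diets.

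Among 46 histone modifiers 39 lay above 0, with a median of 0.09 (0.06 without replicate 1 on HFD-corn oil) and 6 higher and 1 lower at an unadjusted p under 0.05. Kdm3a, a demethylase of histone H3, had 0.29 ± 0.09, Wdr5, a core subunit of methyltransferase complexes, 0.25 ± 0.09, and Ehmt2, a methyltransferase, 0.20 ± 0.08, each without overlap between the diets. Of 35 ribosomal protein genes 29 lay above 0, with a median of 0.08 (0.03 without replicate 3 on HFD-EPA/DHA) and 1 with an unadjusted p under 0.05, Rps9 at 0.22 ± 0.08. The lists of the acute phase, the circadian clock, ER stress, coagulation and complement, and respiratory chain subunits had medians of −0.02, −0.10, −0.00, 0.01 and 0.02, with at most 1 member of each at an unadjusted p under 0.05. With each mouse left out, the medians of these lists ranged from −0.14 to 0.03.

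The 16 uncalled genes with the largest differences and no overlap between the diets included 8 on each side. Beside Cyp2b9, Cyp4a14, Acot3, Hsd17b6, Cyp4a31 and Slc39a4, those above 0 were Foxq1, a forkhead transcription factor, at 0.82 ± 0.56, and Rab30, a Golgi GTPase, at 0.75 ± 0.21. Foxq1 rested on 1 mouse on HFD-EPA/DHA at 10.78, with 8.57 to 8.97 in the other 3, and its log2 fold change was 0.31 without that mouse. Those below 0 were Frmd4b, a scaffold protein, at −0.83 ± 0.24, Cib3, a calcium-binding protein, at −0.82 ± 0.29, Aacs, the acetoacetyl-CoA synthetase that feeds ketone bodies into lipid synthesis, at −0.81 ± 0.37, Inhbe, the hepatokine activin E, at −0.79 ± 0.36, and Pstpip2, a regulator of actin in macrophages, at −0.79 ± 0.21. They also included Omd, a matrix proteoglycan, at −0.73 ± 0.20, 2010003K11Rik at −0.73 ± 0.19, and Slc43a1, an amino acid transporter, at −0.69 ± 0.20. Slc43a1 had log2 signals of 7.96, 8.12, 7.83 and 7.79 on HFD-EPA/DHA, against 8.65, 8.69, 8.58 and 8.56 on HFD-corn oil, the most even of these. A second probe set of Pstpip2 had −0.03 ± 0.12.

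On both HFDs the mice differed among themselves in the synthesis genes more than in the oxidation genes. In lipogenesis and sterol synthesis the mice on HFD-corn oil spread about as widely as those on HFD-EPA/DHA. When each gene was set to its mean over the 8 arrays, the median of the 15 lipogenic genes was −0.01, −0.00, −0.42 and −0.51 in replicates 1 to 4 on HFD-EPA/DHA, against 0.45, 0.32, −0.04 and 0.16 on HFD-corn oil. For the 5 genes of PUFA synthesis it was 0.04, −0.10, −0.44 and −0.39 on HFD-EPA/DHA, against 0.28, 0.26, 0.14 and 0.15 on HFD-corn oil, which did not overlap. For sterol synthesis it was 0.02, −0.05, −0.33 and −0.30 on HFD-EPA/DHA, against 0.38, 0.11, −0.06 and 0.17 on HFD-corn oil. Replicates 3 and 4 on HFD-EPA/DHA were thus the lowest in all 3 lists. For the 20 mitochondrial oxidation genes the medians were 0.12, 0.05, 0.14 and 0.02 on HFD-EPA/DHA, against −0.08, −0.07, −0.06 and −0.10 on HFD-corn oil, with a far smaller spread and no overlap. The mice were killed over several mornings, some hours after food had been taken away, and the day and hour for each mouse are not given in the sources used here, so that their part in these differences was not tested.

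**Figure D4:**
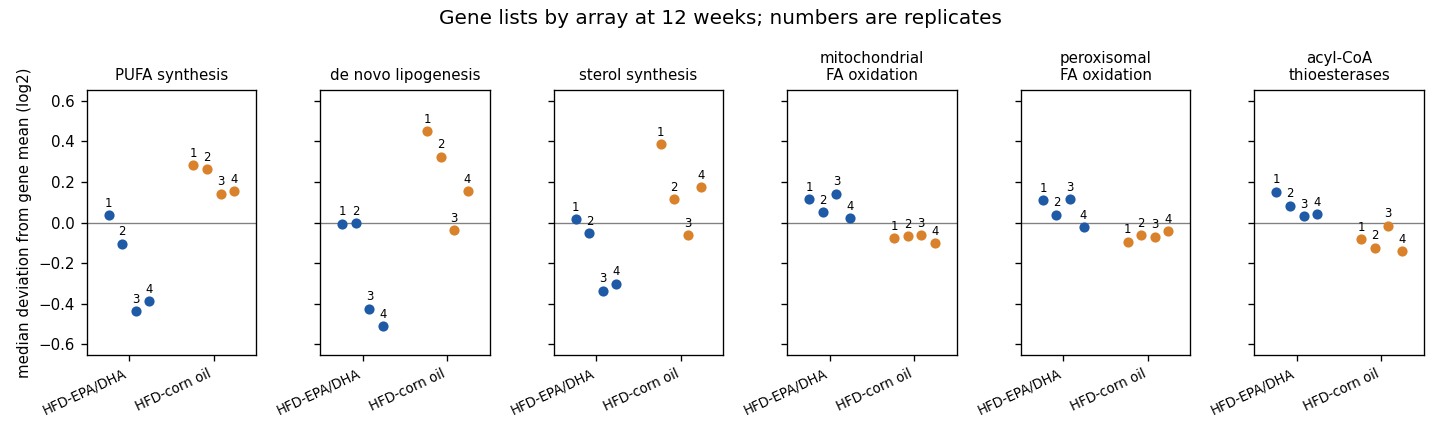
Median over the members of 6 gene lists of each gene's deviation from its own mean over the 8 arrays, in log2 units, with 1 numbered point per mouse. In the 3 synthesis lists replicates 3 and 4 on HFD-EPA/DHA, at −0.30 to −0.51, lie lowest, and in the mitochondrial list all HFD-EPA/DHA points lie above all HFD-corn oil points.

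The same contrast at 8 weeks, with 4 mice on the EPA/DHA diet and 3 on the corn oil diet in the same fit, gave 3 probe sets higher (0.00726%) and 8 lower (0.0193%). All 4 probe sets called at 12 weeks were called lower at 8 weeks too, with log2 fold changes of −1.18 for Apoa4, −1.48 for Stap1, −1.12 for Gpc1 and −1.15 for the unnamed probe set. Fabp2 and Fads2 passed the test at 8 weeks, at −1.26 (limma adjusted p = 0.000243) and −0.69 (adjusted p = 0.0264), as did Cidec at −1.90 (adjusted p = 0.00929). The change of the diet difference between the 8- and 12-week mice was called for 0 probe sets (0%), with a smallest adjusted p of 0.508. At an unadjusted p under 0.05 there were 1844 probe sets, no more than that threshold passes by chance. Of the 90 named probe sets, 75 had the same sign at both times. They were chosen largely for their differences, so this count does not describe all genes, for which it was not made. Cidea, Cd36, Mt1 and Mt2 had −1.22, −0.94, 1.18 and 1.62 at 8 weeks, further from 0 than at 12 weeks, and Btg2, an antiproliferative early-response gene, had 0.53 at 8 weeks and −0.72 ± 0.16 at 12 weeks. The oxidation lists had medians of −0.03 (mitochondrial) and −0.07 (peroxisomal) at 8 weeks, and the thioesterases of −0.04, while lipogenesis had −0.46 and PUFA synthesis −0.52. The thioesterases that reversed sign, from below 0 at 8 weeks to above 0 at 12 weeks, included Acot1, Acot3 and Acot4. Acot1 lay near 0 at 8 weeks (−0.04 ± 0.17). The 8-week mice on HFD-corn oil spread widely for Acot3, with log2 signals from 7.52 to 10.92. The list linked to Pparg and lipid droplets had −0.34 at 8 weeks, with 21 of 24 genes below 0, and −0.06 at 12 weeks. A list of 19 immediate early genes had 0.49 at 8 weeks and −0.05 at 12 weeks. The change had an unadjusted p under 0.05 for 9 of the 24 genes and 7 of the 19, against 1844 of all 41345 probe sets. It did so for 4 of 11 thioesterases, 3 of 20 mitochondrial and 3 of 17 peroxisomal genes, and 0 of 15 lipogenic genes. The lists were written with earlier results known, and the share of all genes below 0 at 8 weeks was not counted. Time cannot be told apart from the study, since the mice of the 2 times belonged to separate studies.

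**Figure D5:**
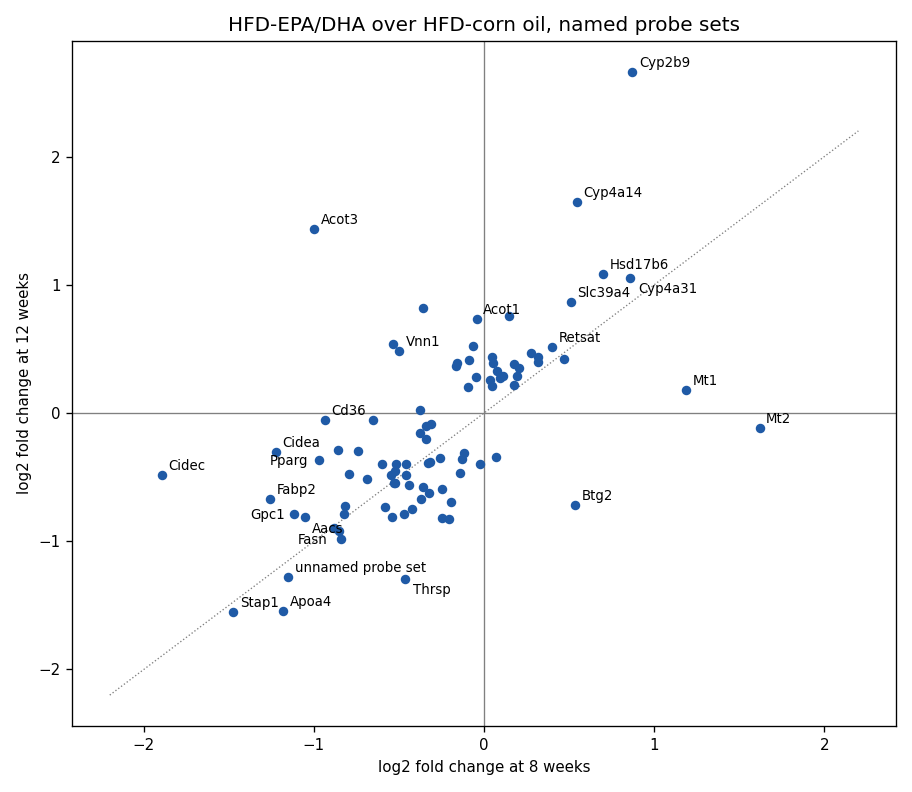
Log2 fold change of HFD-EPA/DHA over HFD-corn oil for the 90 named probe sets at 12 weeks (vertical axis) and at 8 weeks (horizontal axis), with the dotted line at equal values. Apoa4, Stap1, Gpc1 and the unnamed probe set lie near the line at the lower left, and Cidec and Fabp2 lie further out at 8 weeks. Cyp2b9 and Cyp4a14 lie above 0 at both times and higher at 12 weeks. Acot3 lies below 0 at 8 weeks and above 0 at 12 weeks.

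Set against the control diet, which shares its 4 mice with both comparisons, HFD-EPA/DHA at 12 weeks gave 124 probe sets higher (0.3%) and 131 lower (0.317%), and HFD-corn oil gave 44 higher (0.106%) and 30 lower (0.0726%). By list, the medians against control were −0.73 on HFD-EPA/DHA, against −0.22 on HFD-corn oil for PUFA synthesis, and −0.65 on HFD-EPA/DHA, against −0.16 on HFD-corn oil, for de novo lipogenesis. They were 0.23 on HFD-EPA/DHA, against 0.06 on HFD-corn oil for mitochondrial oxidation, and 0.25 on HFD-EPA/DHA, against 0.07 on HFD-corn oil, for peroxisomal oxidation. Ces1g, a carboxylesterase of the liver, rose by 0.86 in EPA/DHA mice (limma adjusted p = 1.58e-05) and by 0.65 in corn oil mice (adjusted p = 0.00190). Cyp17a1 fell in both, with −2.49 in EPA/DHA mice (adjusted p = 0.000425) and −1.68 in corn oil mice (adjusted p = 0.0352). Acot1 and Gpat3 rose against control on HFD-EPA/DHA, by 1.29 and 1.10, and had 0.55 and 0.57 on HFD-corn oil. The control diet also had less sucrose and no added cholesterol, so these values do not isolate the fat.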

How the data were processed

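Each array held the liver RNA of 1 mouse. The authors computed the deposited log2 signals in Expression Console, by iter-PLIER from the perfect match probes, with quantile normalization. The scale of the deposited table was read as log2 from its range of 4.39 to 13.93. No further normalization or filter was applied. Arrays have no sequencing depth, and the number of mice limits the precision.

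The fit (limma 3.58.1 under R 4.3.3, lmFit and eBayes) held the 6 groups and 23 arrays, without the 8-week HFD-corn oil array that the study had set aside. Two-sided p-values were adjusted by the Benjamini-Hochberg method over the 41345 probe sets, and an adjusted p under 0.05 was called. Genes were named from GEO's platform annotation. It gives a single symbol for 23521 probe sets, several for 1820 and none for 16004. Lists used the brightest probe set of a gene, and 961 of 1075 list entries were measured.

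The comparison, lists and named genes were chosen with earlier results of these data known. Named were all called probe sets, 23 genes of the study, up to 3 genes with the smallest p of each described list and the 8 largest uncalled differences on each side without overlap. Cpt1a, Srebf1, Scd1, Acaca, Sqle, Hacl1 and Acot2 were named after their values were seen. The scripts were tested on simulated data. Alternatives were all 24 arrays, the 12-week or the compared arrays alone, eBayes with trend and robust settings, median centring, quantile normalization again, an offset of 16, brighter or 1-symbol probe sets, the replicate block, each mouse left out, and for lists the mean over probe sets. Promoters came from RefSeq tables, the files were read with data.table (version 1.17.8), and matplotlib 3.10.9 under Python 3.11.15 drew the figures.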

Additional observations from a re-analysis of the deposited data

Results flagged for a closer look

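Of 180 groups of 4 arrays, 2 for each of the 90 named probe sets, 11 held a mouse far from the other 3 by Dixon's ratio (above 0.829), where chance alone gives about 1 in 20. Acot3 had a log2 signal of 10.39 in replicate 1 on HFD-EPA/DHA, with 9.22 to 9.28 in the other 3, and Mt2 had 10.37 in the same mouse, with 9.50 to 9.65. Cpt1a was high in this mouse too, at 12.17 (11.87 to 11.91 in the others). On HFD-EPA/DHA, Tap1 was high in replicate 4 at 9.31 (9.16 to 9.17), and H2-Q1 was low in replicate 2 at 7.72 (7.94 to 7.97). On HFD-corn oil, Pnpla3 and Sqle were high in replicate 1, at 8.91 (7.47 to 7.70) and 9.03 (7.56 to 7.81). Replicate 3 on HFD-corn oil was low for Ces1d at 11.56 (11.83 to 11.85) and high for Wdr5 at 9.03 (8.87 to 8.88). Replicate 4 on HFD-corn oil was high for Sema5b at 8.58 (8.10 to 8.14) and low for Cpt1a at 11.84 (12.10 to 12.13). The difference between the diets was not shown to change with time for any named probe set, since none passed the test of that change.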

How the results depend on the processing

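The count of lower probe sets was 3 to 6 in all alternatives and that of the change with time 0 in all that could give it. The count of higher probe sets, 0, became 1 with the 12-week arrays alone, 3 with the compared arrays alone, and 0 to 1 with each mouse left out. Apoa4, Gpc1 and the unnamed probe set passed the test in every alternative that held them, and Stap1 in all but that with all 24 arrays (−1.55, adjusted p = 0.302). Hsd17b6 passed with the 12-week arrays alone and with the compared arrays alone (1.08), as did Cyp4a14 (1.65) and Slc43a1 (−0.69) with the compared arrays alone, Elovl2 (−0.40) with the trend and robust settings, and Slc39a4 (1.01) without HFD-EPA/DHA replicate 1. With each mouse left out, values near 0 changed sign, ranging over −0.27 to 0.28 for Cd36, −0.024 to 0.11 for Aldh3a2, −0.15 to 0.10 for Sema5b and −0.31 to 0.087 for Mt2. Counted over each pair of a list and an alternative, the medians of 40 lists moved by less than the spread between mice in 749 pairs and by more in 11. Among brighter probe sets that of the carboxylesterases was 0.10. With each mouse left out, the medians ranged from 0.038 to 0.12 for carboxylesterases, −0.12 to −0.014 for sterol regulation, −0.088 to 0.016 for fatty acid binding, −0.096 to 0.0092 for the acute phase, −0.093 to 0.0047 for lipoproteins, 0.046 to 0.11 for Cyp2 and Cyp3, and −0.14 to −0.022 for sterol efflux. Replicate numbers 1 to 4 recur in both diets, but same-numbered mice had deviations correlated at 0.26, −0.06, 0.04 and 0.10, and 2 of 4 lay closest to their own number. With the replicate block 0 probe sets were higher and 4 lower, as without it. Single mice decide many of the uncalled values, and 4 mice per diet limit the precision.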
